A study of Mus musculus with 6 samples.

Results

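Interferon response genes were followed in cultured mouse astrocytes in which the chromatin remodeller gene Chd7 was targeted. The set comprised 40 genes, and its members were taken as the array probes whose platform gene symbol is in that list and which carry a value on at least 3 of the 6 arrays in the authors' processed table. Of the 40 genes, 39 had a probe (42 probes), and 38 genes with 41 probes were kept, out of 19321 named genes and 23473 probes on the array, of which 20540 probes entered the fit. Ifi44 was not analysed here. The single Oas3 probe was left out because it had a value of 1 on 2 arrays and empty cells on the other 4, while each kept probe had a value on all 6 arrays, down to 3 for the dimmest.

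The cells were astrocytes from the cortex of newborn (P0) C57BL/6J mice carrying floxed Chd7 alleles (Chd7 flox/flox), grown in medium with FGF2, EGF, B-27 and 10% FBS. Control cultures (3 arrays) were infected with a control lentivirus and Cre cultures (3 arrays), with a lentivirus for the Cre recombinase, which cuts out floxed DNA, and RNA was taken 3 days after infection. The series title calls the Cre cultures a Chd7 knockdown. Both groups thus carried the floxed alleles and had met a lentivirus, and no uninfected culture was measured here. The promoter that drives Cre and the number of animals behind each culture are not given in the sources used here. Cre was present in only 1 group, so its own effects cannot be told apart from those of losing Chd7.

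Interferons are secreted proteins that cells release when sensors in the cytoplasm or endosomes meet viral nucleic acid. Type I interferon binds a receptor that activates JAK kinases and a complex containing STAT2 and IRF9, which binds interferon-stimulated response elements (ISREs) before genes such as Ifit1, Isg15 and Mx2; interferon gamma acts through GAS elements and strongly induces Irf1, the GTPases of the GBP and IRG families and the immunoproteasome. Astrocytes respond to both kinds of interferon.

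Upstream sequences are shown for the 6 members that hold this element among the 8 whose level varied most between control arrays. Of the other two, Irf7, the most variable, held neither motif described here and Ifi35 held no ISRE letters. RefSeq's promoter windows for build GRCm38.p6 (250 bases before to 50 after the start) held 29 of the 40 genes. The letters GAAANNGAAA on either strand, used for the ISRE, occurred in windows of 15 of those 29 genes (51.7%) and in 3.99% of all genes in the table. The letters TTCNNNGAA, used for the GAS element and the same on both strands, occurred in 9 of the 29 (31.0%) and in 9.55% of all genes. The stretches printed here hold 2 GAS matches, of which 1 overlaps the ISRE letters. Each stretch is 100 bases, 5′ to 3′ on the gene's strand, with the ISRE letters in capitals, merged where matches overlap. The Ifit1 stretch lies at chr19:34640749-34640848 (plus strand), Ifit3 at chr19:34583344-34583443 (plus), Isg15 at chr4:156200837-156200936 (minus), Oas1a at chr5:120907526-120907625 (minus), Irgm1 at chr11:48871421-48871520 (minus) and Bst2 at chr8:71537546-71537645 (minus).
Ifit1: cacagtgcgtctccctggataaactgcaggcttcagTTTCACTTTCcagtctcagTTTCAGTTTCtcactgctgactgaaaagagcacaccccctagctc
Ifit3: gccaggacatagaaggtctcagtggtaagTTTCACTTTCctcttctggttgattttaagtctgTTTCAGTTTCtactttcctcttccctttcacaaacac
Isg15: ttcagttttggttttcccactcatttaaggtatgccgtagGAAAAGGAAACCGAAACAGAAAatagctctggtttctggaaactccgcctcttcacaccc
Oas1a: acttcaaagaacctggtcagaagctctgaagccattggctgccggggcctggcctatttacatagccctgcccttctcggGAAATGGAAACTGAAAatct
Irgm1: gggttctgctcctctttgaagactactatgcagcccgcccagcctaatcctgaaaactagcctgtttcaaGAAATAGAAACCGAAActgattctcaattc
Bst2: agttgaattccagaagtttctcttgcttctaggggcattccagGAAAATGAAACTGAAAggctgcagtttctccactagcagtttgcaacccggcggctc
A match is a description of the letters, not a measured binding site.

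Levels below are log2 intensities after correction against the blank spots and quantile normalisation, unless they are called the authors' values, which are linear intensities scaled so that each array's median probe reads 25. The correction adds an offset of 50 before the logarithm, so log2 differences of dim probes are compressed. Between 82.8% and 90.7% of probes lay above background per array, control replicate 2 having the most, and with 3 arrays per group their number limits precision. As a check of the labels, the brighter Chd7 probe (M300016343) read 42, 89 and 46 in control and 8, 7 and 8 in Cre cultures in the authors' values. The dimmer Chd7 probe (M400002483) read 11, 13 and 14 against 9, 6 and 11, and its groups overlapped (difference -0.10, SE 0.06). All 12 astrocyte marker genes, Gfap, Aqp4 and Aldh1l1 among them, lay above background on all 6 arrays. So did markers of other cells, such as Tubb3, Map2 and Cd4, so that being above background does not tell astrocytes from other cells. In the authors' values Aqp4 read 923 to 1123 over the 6 arrays and Gjb6, on the same astrocyte list, 2 to 5.

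No interferon response gene passed the test for a difference between Cre and control cultures, nor did any other probe in the fit, those of Chd7 included. The test thus missed even the fall of the brighter Chd7 probe (difference -1.13, limma adjusted p = 0.405). A member that did not pass may therefore still differ between the groups. Of the 41 probes, 0 passed a limma adjusted p of 0.05, against 0% of all 20540 probes, and the smallest adjusted p among them was 0.836 (Rtp4). At an unadjusted p under 0.05 there was 1 lower probe (Rtp4; 2.85% of all probes) and 0 higher (2.77% of all probes). Differences lay below 0 for 27 probes and above 0 for 14, with a median of -0.06 against -0.001 over all probes. The highest control array stood above the lowest by a median of 0.53 for the members and 0.16 for all probes. This range over the controls exceeded the difference between the groups for 40 of the 41 probes, Irf1 being the exception. A range over 3 arrays tends to exceed a difference between group means in any case. The share over all probes was not counted, so the 40 probes do not set the members apart. A wide control range was not particular to the set. Among probes with a mean level of at least 7 its median was 0.62 for members and 0.33 for all probes, and over other lists it was 0.45 (JAK, STAT and IRF signalling), 0.44 (further induced genes), 0.42 (MHC class I presentation), 0.41 (astrocyte markers) and 1.02 (fibroblast and mural cell markers). The groups did not overlap for 1 member, Mx2.

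**Figure D1:**
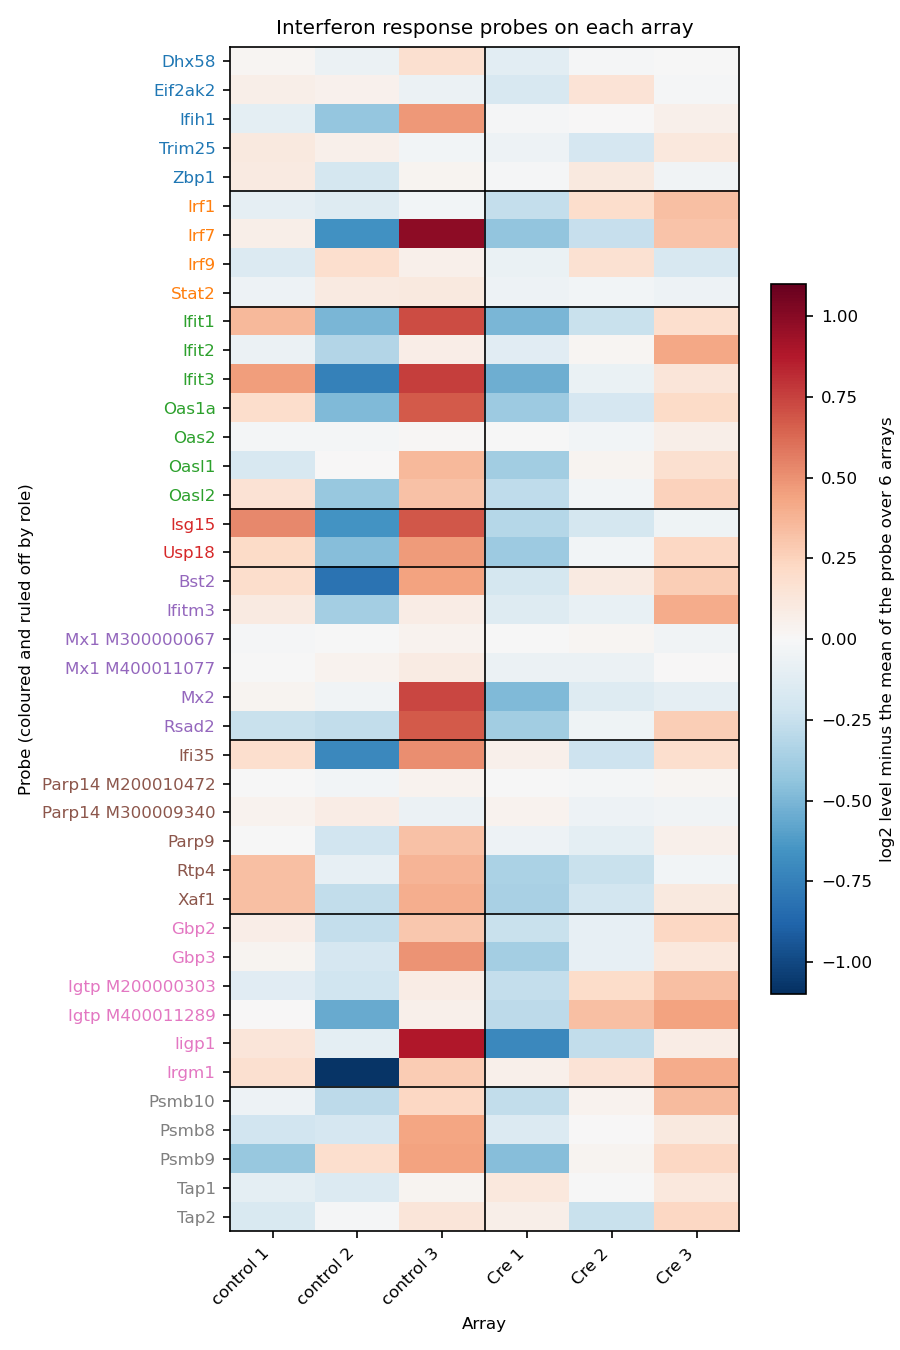
Log2 level of each of the 41 probes on each of the 6 arrays, as the difference from the probe's own mean over the arrays; rows are grouped by role and red is higher. Control replicate 3 is the highest of the 6 arrays for 26 probes and control replicate 2 the lowest control for 30.

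The members moved together between the control arrays. Control replicate 3 was the highest of the 6 arrays for 26 of the 41 probes, as it was for 17.2% of all probes. Control replicate 2 was the lowest control for 30 of the 41 and for 37.5% of all probes, and 28 followed the order replicate 2, replicate 1, replicate 3 from low to high, as did 20% of all probes. The median member stood 0.19 below its 6-array mean in control replicate 2 (-0.191) and above it by 0.30 in control replicate 3, while the median over all probes was -0.003 on both arrays. Among Cre arrays, replicate 3 was the highest for 34 of the 41 probes (32.6% of all probes), and the median member stood at -0.19 in Cre replicate 1, -0.03 in Cre replicate 2 and 0.12 in Cre replicate 3 against its 6-array mean. With the scanner's local background column in place of the blank spots, control replicate 3 was the highest array for 10 of the 41 probes. Control replicate 2 was the lowest control for 25 of the 41 with that column, for 21 with median scaling and for 20 in the authors' values. These array patterns were chosen for description after the values were seen.

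The spread was wide in 8 members, whose control arrays spanned at least 1 log2 unit; this held for 8 of 41 members (19.5%) and for 1.52% of all probes. Among probes with a mean level of at least 7 it held for 8 of 34 members and 3.29% of all such probes, so that brighter probes in general also varied more. Over the Cre arrays 0 of the 41 probes spanned that much, as did 0.624% of all probes. Over all members the median range was 0.53 in control and 0.46 in Cre cultures, and a control range at least 2 times the Cre range was seen in 12 of 41 members (29.3%) and 24.8% of all probes. The 8 members, named after their values were seen, were Irf7, Ifit1, Ifit3, Oas1a, Isg15, Bst2, Ifi35 and Irgm1. Of these 8 genes, 6 held the ISRE letters in their promoter window, as did 8 of the 19 other measured members with a window. Measured members with the letters had a median control range of 0.92 (14 genes) and those without of 0.53 (13 genes), beside 0.195 and 0.173 for all measured genes with and without them. The members' ranges overlapped, from 0.13 to 1.51 with the letters and from 0.11 to 1.65 without, and a link between letters and spread was not tested.

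**Figure D2:**
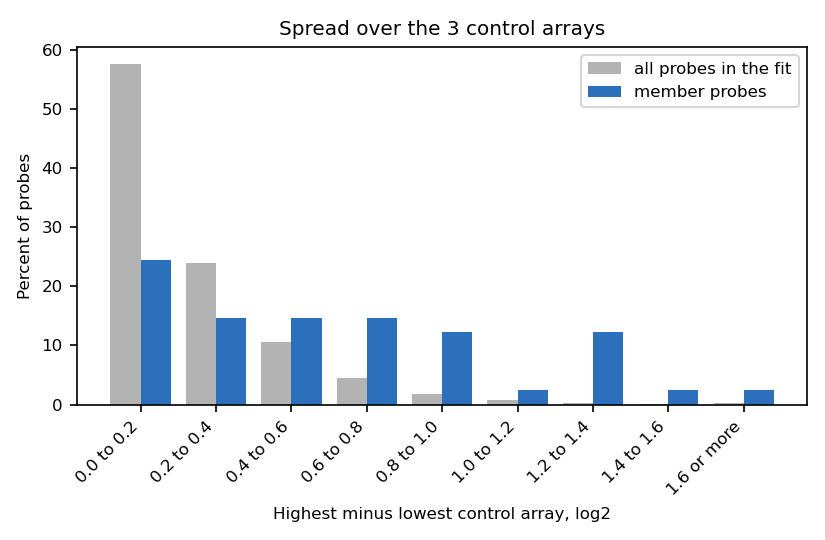
Percent of probes (vertical axis) by the difference between the highest and lowest of the 3 control arrays in log2 units (horizontal axis), for the 41 member probes and all probes in the fit. Of all probes 57.6% lie under 0.2, against 24.4% of the members.

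Among the transcription factors, Irf7, the factor that amplifies type I interferon production, had the widest range of all members. It read 8.48, 7.75 and 9.40 in control replicates 1 to 3 and 7.98, 8.16 and 8.73 in Cre replicates 1 to 3. Control replicate 3 stood above every other array and control replicate 2 below every other, a 3.14-fold range within 1 group, and the Cre arrays lay between them (difference -0.25, SE 0.45, 95% interval -1.36 to 0.86, limma adjusted p = 0.999). Stat2, which encodes part of the type I complex, had the smallest unadjusted p of this role with a small difference. It read 7.65, 7.81 and 7.82 in control and 7.65, 7.68 and 7.65 in Cre cultures, so that control replicate 1 was level with the Cre arrays (difference -0.10, SE 0.05, limma adjusted p = 0.996). The factors Irf9, also part of that complex, and Irf1, which answers mainly to interferon gamma, also did not pass, and their control arrays spanned 0.33 and 0.11.

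The sensors had a median control range of 0.25 over 5 genes, the same as the transcription factors. Dhx58, a helicase of the RIG-I-like family that tunes RNA sensing, read 6.94, 6.85 and 7.09 in control and 6.80, 6.90 and 6.91 in Cre cultures, and the groups overlapped (difference -0.09, SE 0.07, limma adjusted p = 0.999). Ifih1, the RNA sensor MDA5, was the exception in this role with a control range of 0.90, control replicate 3 being highest, although its Cre arrays lay within 0.07 of each other. The RNA-activated kinase gene Eif2ak2, the ubiquitin ligase gene Trim25 and the Z-nucleic acid sensor gene Zbp1 spanned between 0.13 and 0.29 over the controls. None of the 5 passed, with differences between -0.09 and 0.04.

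The IFIT proteins, which bind viral RNA and block its translation, included members of the widest spread. Ifit1 read 10.23, 9.37 and 10.59 in control and 9.37, 9.63 and 10.06 in Cre cultures. Control replicates 1 and 3 lay above all Cre arrays and control replicate 2 was level with the lowest of them (difference -0.37, SE 0.35, limma adjusted p = 0.999). Ifit3 read 11.19, 9.98 and 11.49 in control and 10.19, 10.65 and 10.86 in Cre cultures, again with control replicate 2 at the bottom and the other controls at the top. Its difference was -0.32 (SE 0.42, limma adjusted p = 0.999), and the 3 controls spanned 2.84-fold. Ifit2 did not share this shape, with 7.17, 6.92 and 7.31 in control and 7.11, 7.26 and 7.66 in Cre cultures (difference 0.21, SE 0.17, limma adjusted p = 0.999), Cre replicate 3 being the highest array.

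The OAS enzymes make the second messenger that switches on RNase L. Oas1a read 8.63, 7.95 and 9.11 in control and 8.04, 8.25 and 8.65 in Cre cultures, with both extremes among the controls (difference -0.25, SE 0.32, limma adjusted p = 0.999). Oasl1 and Oasl2, OAS-like genes, spanned 0.53 and 0.75 over the controls and did not pass. Oas2 lay close to background, at 3 to 5 in the authors' values, where no difference could be resolved. In the whole role 5 of 7 probes lay below 0, and the differences ran from -0.37 to 0.21.

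Isg15 encodes a ubiquitin-like protein that is attached to other proteins during the response, and Usp18 the protease that removes it and dampens receptor signalling. Isg15 read 11.38, 10.19 and 11.53 in control and 10.54, 10.66 and 10.80 in Cre cultures. In the authors' values these were 1501, 758 and 1962 against 823, 808 and 1015, so that control replicates 1 and 3 stood above all Cre arrays and control replicate 2 below all of them. The controls had an SD of 0.74 and the Cre arrays of 0.13 (n = 3 each), and the difference of -0.37 (SE 0.37) had a limma adjusted p of 0.999. Usp18, named after its value was seen, read 10.53, 9.85 and 10.79 in control and 9.92, 10.29 and 10.55 in Cre cultures, with the same array lowest (difference -0.14, SE 0.28).

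**Figure D3:**
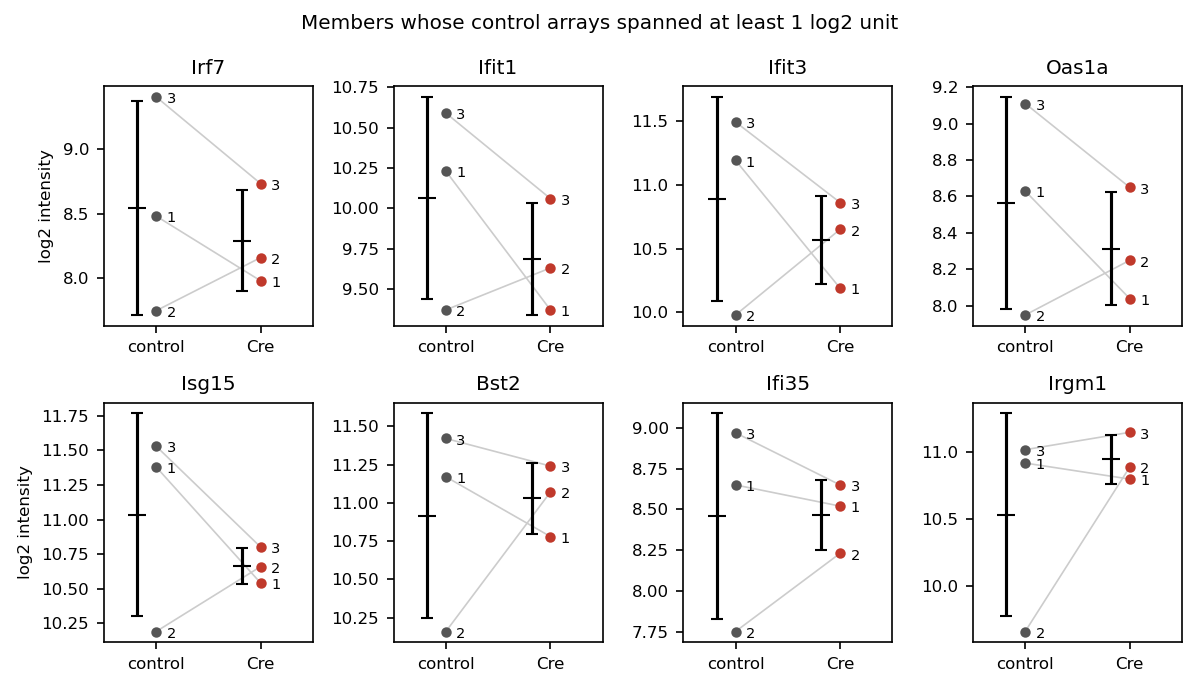
Log2 intensity (vertical axis) of the 8 members whose controls spanned at least 1 log2 unit, as points for each control and Cre array numbered by replicate, with grey lines joining same-numbered arrays and bars for the mean and SD (n = 3). Control replicate 2 is the lowest control in each panel; the panels were chosen for their wide control range, so the narrower Cre range follows from the choice.

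Among the other antiviral effectors, Mx2, a gene of the dynamin-like GTPase family, was the member in which the groups did not overlap. It read 6.87, 6.80 and 7.57 in control and 6.35, 6.70 and 6.74 in Cre cultures, every Cre array being lower than every control. The difference was -0.48 (SE 0.23, 95% interval -1.06 to 0.09), with a limma adjusted p of 0.941 and an exact two-sided permutation p of 0.1, the smallest that 3 arrays against 3 allow. Without control replicate 3 the Mx2 difference was -0.24. The authors' values for Mx2 were 55.3 ± 26.6 over the controls and 26.7 ± 7.10 over the Cre arrays (SD, n = 3 each), and control replicate 3, at 86, stood well above the other controls at 39 and 41. A lack of overlap in either direction was seen in 1 of 41 members and in 10.5% of all probes. With the Cre arrays lower it was 1 member (5.31% of all probes), and with the Cre arrays higher 0 members (5.22% of all probes).

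Mx1, the other Mx gene, was barely above background. Its probe M400011077 read 5.85, 5.89 and 5.94 in control and 5.79, 5.79 and 5.86 in Cre cultures (difference -0.08, SE 0.04, limma adjusted p = 0.988), which overlap in control replicate 1 and Cre replicate 3, and its second probe M300000067 differed by -0.01. Bst2, which encodes the membrane tether tetherin, read 11.17, 10.16 and 11.42 in control and 10.78, 11.07 and 11.24 in Cre cultures, with control replicate 2 alone below the rest (difference 0.11, SE 0.34). The membrane protein gene Ifitm3 and the viperin gene Rsad2 spanned 0.47 and 0.94 over the controls and did not pass.

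Rtp4, an interferon-induced gene of the receptor transporter protein family, had the smallest unadjusted p of the set. It read 10.80, 10.38 and 10.84 in control and 10.12, 10.22 and 10.44 in Cre cultures. Each same-numbered pair had the lower value in its Cre array, with differences of -0.68, -0.15 and -0.41, although control replicate 2 lay below Cre replicate 3. The difference of -0.41 (SE 0.15, 95% interval -0.79 to -0.04) had an unadjusted p of 0.0358 and a limma adjusted p of 0.836. In the authors' values 65.2% of the control mean was left, on a scale where the median of all probes was itself lower in Cre cultures (-0.15 on the log2 scale). With the local background column the Rtp4 difference was 0.20.

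Xaf1, the gene of an apoptosis-promoting partner of XIAP, read 11.05, 10.45 and 11.12 in control and 10.37, 10.52 and 10.83 in Cre cultures, again with control replicate 2 among the Cre arrays (difference -0.30, SE 0.22, limma adjusted p = 0.999). Ifi35 read 8.65, 7.75 and 8.97 in control and 8.52, 8.23 and 8.65 in Cre cultures, with a difference of 0.01 (SE 0.33). The ADP-ribosyltransferase family genes Parp9 and Parp14 had control ranges of 0.53, equal to the median member, for Parp9 and of 0.07 and 0.15 for the probes of Parp14, of which M200010472 was close to background.

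The interferon-inducible GTPases, which gather at the membranes of intracellular pathogens, went both ways. Iigp1 read 7.82, 7.58 and 8.57 in control and 6.98, 7.42 and 7.77 in Cre cultures. Within pairs 1 to 3 the differences were -0.85, -0.16 and -0.81, but Cre replicate 3 lay above control replicate 2 (difference -0.60, SE 0.32, 95% interval -1.39 to 0.19, limma adjusted p = 0.982). The Iigp1 difference was -0.31 without control replicate 3 and -0.40 without Cre replicate 1. Irgm1 read 10.92, 9.66 and 11.02 in control and 10.80, 10.89 and 11.15 in Cre cultures, where 5 arrays lay together and control replicate 2 stood alone below them (difference 0.41, SE 0.38). Igtp read higher in Cre cultures by both probes: M400011289 gave 10.43, 9.87 and 10.48 in control and 10.14, 10.76 and 10.87 in Cre cultures (difference 0.33, SE 0.25, limma adjusted p = 0.999), and M200000303 differed by 0.17. The guanylate-binding protein genes Gbp2 and Gbp3 spanned 0.56 and 0.68 over the controls and did not pass.

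Genes that supply peptides to MHC class I are the immunoproteasome subunit genes Psmb8, Psmb9 and Psmb10 and the peptide transporter genes Tap1 and Tap2. Tap1 read 7.09, 7.04 and 7.22 in control and 7.31, 7.19 and 7.31 in Cre cultures, higher in the Cre array of each pair by 0.23, 0.15 and 0.09, with control replicate 3 overlapping Cre replicate 2. The difference of 0.16 (SE 0.07, 95% interval -0.01 to 0.32) did not pass (limma adjusted p = 0.918). The other 4 genes stood between -0.14 and 0.08. On the log2 scale, control replicate 2 was the lowest control in only 2 of the 5 probes here, against all 6 probes of the GTPases. In the authors' values control replicate 1 was the lowest control for each probe here. It was also the lowest there for the GTPase gene Gbp3 (208, 212 and 333) and the Igtp probe M200000303 (625, 689 and 830).

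**Figure D4:**
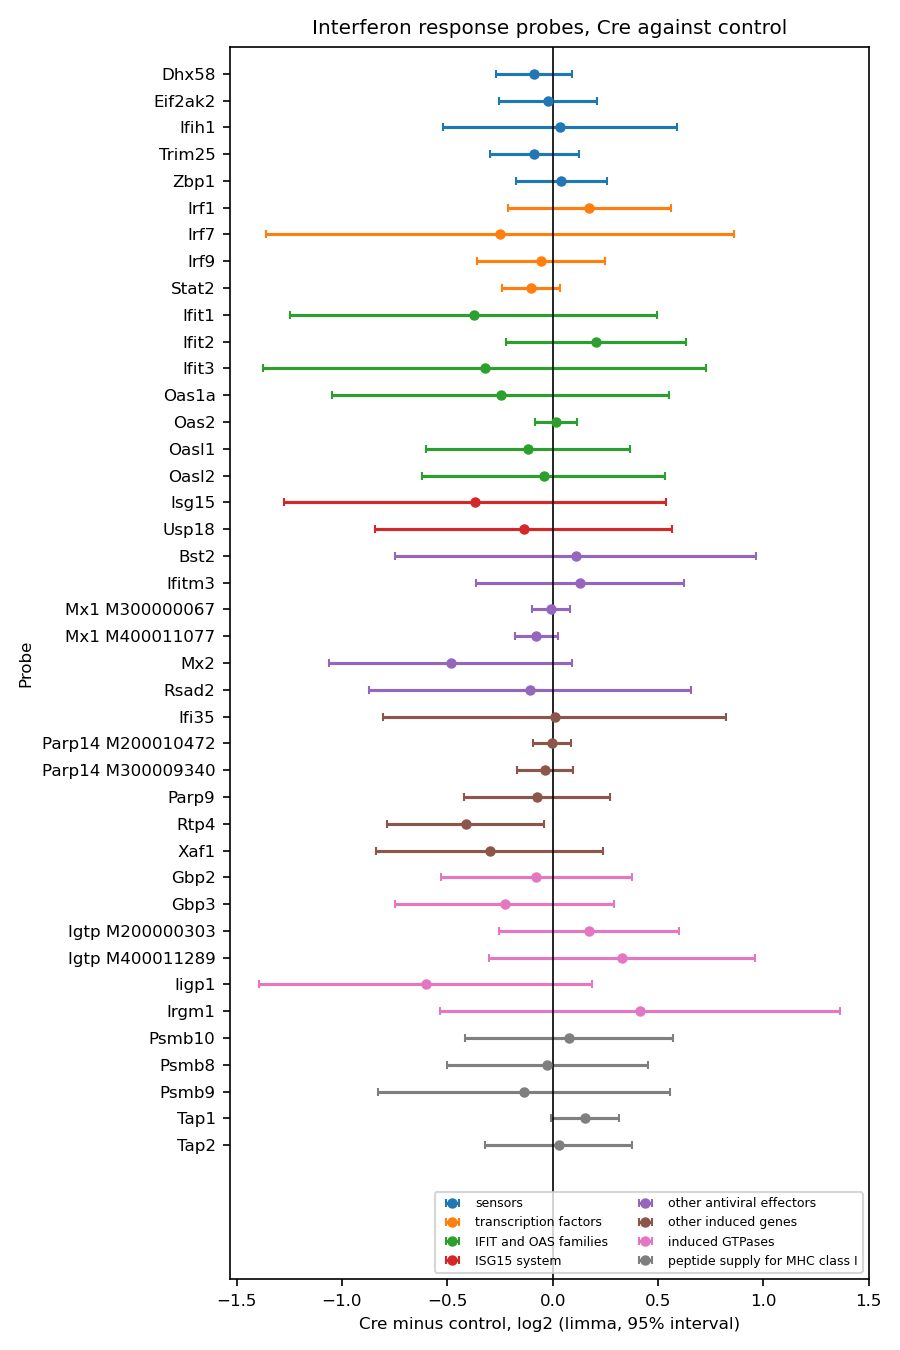
Difference between Cre and control cultures in log2 units (horizontal axis, points) with limma's 95% interval (bars) for each of the 41 probes, coloured by role. The interval leaves out 0 for Rtp4 only, and the widest intervals belong to genes whose controls spanned at least 1 log2 unit.

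Within same-numbered pairs the direction changed from pair to pair. The median member difference was -0.16 in pair 1, 0.17 in pair 2 and -0.18 in pair 3, with medians over all probes between -0.007 and 0.006. Lower values in pairs 1 and 3 with a higher value in pair 2 were seen in 18 of the 41 probes (43.9%) and in 14.8% of all probes. The Cre array was lower in all 3 pairs for 6 probes (14.6%, against 15.5% of all probes) and higher in all 3 for 1, Tap1 (2.44%, against 14.6%). With the replicate number as a block, 5 members had an unadjusted p under 0.05: Iigp1 (-0.60), Mx2 (-0.48), Rtp4 (-0.41) and Psmb9 (-0.14) lower and Tap1 (0.16) higher. That compares with 9.34% of all probes (4.81% lower, 4.52% higher), and the smallest adjusted p among members was 0.447.

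**Figure D5:**
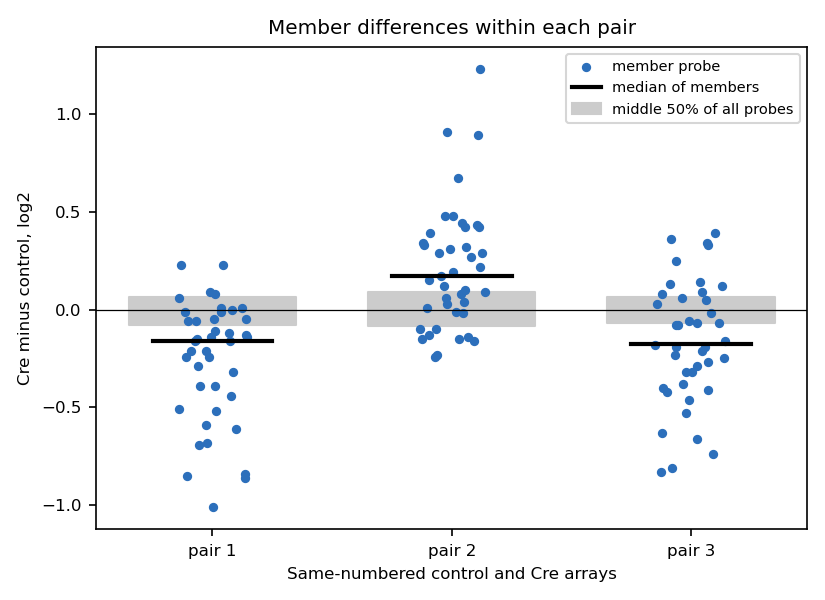
Cre minus control in log2 units (vertical axis) for the 41 probes in each same-numbered pair of arrays (horizontal axis), with the median of the members (black line) and the middle 50% of all probes (grey). The median lies below 0 in pairs 1 and 3 and above 0 in pair 2.

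The balance of directions changed when single arrays of either group were left out. Without control replicate 2, 33 of the 41 probes lay below 0, the median was -0.13, and Ifit1, Ifit3, Isg15, Rtp4 and Xaf1 had an unadjusted p under 0.05, against 6.71% of all probes (3.39% lower). Without control replicate 3, 26 of the 41 lay above 0, the median was 0.05, and Tap1 and Ifih1 had such a p, both higher (3.32% of all probes). Without Cre replicate 1, 21 lay above 0 and 20 below, with a median of 0, and 3 probes had such a p, all higher (2.18% of all probes). They were both probes of Igtp and that of Irf1. In the authors' values 36 of the 41 lay below 0, where the median of all probes was itself shifted to -0.15 and that of the members stood at -0.24. With the local background column 20 of the 41 lay above 0, and the differences of Iigp1 (0.16), Isg15 (0.63), Ifit3 (0.29), Rtp4 (0.20), Dhx58 (0.29), Tap1 (-0.17) and Irgm1 (-0.62) changed sign. There Gbp3, Igtp, Parp9 and Trim25 had an unadjusted limma p under 0.05, 2 higher and 2 lower, against 3.78% and 2.48% of all probes. No member passed the adjusted threshold in any of the fits run.

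Other genes of the pathway, from lists that hold none of the members, gave 0 past the adjusted threshold in limma. Among 15 ligand and receptor genes with a probe, the interferon genes Ifnb1, Ifng and Ifna2 lay close to background at 3 to 8 in the authors' values, while the Ifna1 probe read 61 to 75 and the Ifnz probe 27 to 32 over the 6 arrays. Of the 13 probes tested, 0 had an unadjusted p under 0.05. Ifnl3 stood at 0.08 (SE 0.04), also close to background, and the receptor gene Ifngr2 at 0.22 (SE 0.13). Of 15 probes for nucleic acid sensing and its adaptors 1 was lower at that level, Ifi204 at -0.35 (SE 0.13), while Irf3 stood at -0.10. Of 9 probes for JAK, STAT and IRF signalling 0 were, with Jak1 at -0.31 (SE 0.20) and Stat3 at 0.12 by the probe M200012506 and -0.07 by M400013000. Of 9 probes for feedback inhibitors 0 were, with Nlrx1 at 0.10 and Socs1 at -0.15, and of 12 probes for class I presentation 0 were, with Nlrc5 at 0.10 and Psme1 at 0.55 (SE 0.26) by the probe M400000550. That Psme1 value was 0.27 without control replicate 3, and the second Psme1 probe M300018890 stood at -0.04.

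Further induced genes outside the set had 6 of 42 probes at an unadjusted p under 0.05, against 5.61% of all probes. Pml, the organiser of PML bodies, at 0.33 (SE 0.08), Epsti1 at 0.27, Ifitm2 at 0.25 and Slfn8 at 0.15 read higher, and the helicase gene Ddx60 read lower by both probes, at -0.48 (SE 0.13) and -0.33 (SE 0.13); Epsti1, Ifitm2 and Slfn8 were picked for naming once their values were known. The second Epsti1 probe stood at -0.03. Control replicate 3 was the highest of the 6 arrays for 22 of these 42 probes and control replicate 2 the lowest control for 32, as against 2 and 7 of the 13 ligand and receptor probes.

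Markers of other cells that such cultures can hold varied too, and their part in the member values was not tested. In bulk samples fewer cells of a type and less RNA per cell cannot be told apart. Summed over 15 measured microglia and macrophage genes, the authors' values were 429 to 486 in control and 322 to 418 in Cre cultures, with Itgam empty on 5 arrays and Ptprc at 2 to 3. Of 14 probes tested, 4 were lower in Cre cultures and 1 higher at an unadjusted p under 0.05, against 2.85% and 2.77% of all probes, and 0 passed the adjusted threshold in limma. C1qa was among the lower ones, with 54, 53 and 42 in control and 22, 11 and 22 in Cre cultures. Cd68 was the higher one, with 121, 134 and 132 in control and 156, 164 and 193 in Cre cultures. Control replicate 3, where the members were highest, had the lowest control sum. Fibroblast and mural cell markers (10 genes) summed to 6300 to 10515 in control and 5741 to 9132 in Cre cultures, most of it Acta2. Their collagen genes, and Dcn, which is not a collagen gene, were low in both arrays numbered 2. Col1a2 read 527, 72 and 220 in control and 380, 38 and 253 in Cre cultures, and Dcn 59, 8 and 61 and 40, 4 and 40. Control replicate 2 was also the lowest control for 30 of the 41 interferon response probes on the log2 scale, and for 20 in the authors' values. Cre replicate 2 had the lowest Col1a2 of all 6 arrays, and its median member stood -0.03 from the 6-array mean. Oligodendrocyte lineage markers summed to 3330 in control replicate 2, against 1858 and 1798 in the other controls and 1668 to 2489 in Cre cultures. Most of that was Olig1, at 2259 on that array, where Cnp (522), Olig2 (449) and Sox10 (30) were also highest among the controls. The list was not uniform: over control replicates 1 to 3 Mag read 19, 17 and 17, Mog 24, 24 and 24 (probe M300004149) and Mbp 27, 28 and 25. Astrocyte markers summed to 4170 to 6486 in control and 4987 to 6373 in Cre cultures. Of their 13 probes 12 lay above 0 and 1 below, where 50.4% of all probes lay below 0. At an unadjusted p under 0.05 in limma 5 were higher, against 2.77% of all probes, and 0 passed the adjusted threshold. T and NK cell markers (8 genes) summed to 38 to 44 and 26 to 30, with no gene above 13. All these sums are of the authors' values, with empty cells adding nothing. On that scale the median of all probes was itself lower in Cre cultures (-0.15 on the log2 scale). In the limma fit the median difference was -0.02 for the T and NK list and -0.11 for the microglia and macrophage list.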

How the data were processed

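Total RNA was amplified, coupled to Cy5 and hybridised to 1-colour arrays (labels' protocols). Scanner files hold a median spot intensity and a local background intensity per spot, per the file headers. A second deposited table holds the authors' processed linear intensities; the origin of its scale factors is unstated. Probe names came from the platform annotation (20690 of 23473 probes with 1 symbol, 0 with several, 2783 unnamed here; 20556 matched RefSeq by Entrez identifier, 0 symbols changed).

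Spot medians were corrected by normexp against the blank spots (offset 50), log2 transformed and quantile normalised; spots marked by the scanner (0 to 9 per array) were left out. Probes over the blank mean by 2 SD on at least 3 arrays were kept. Groups were compared with limma 3.58.1 in R 4.3.3 (lmFit, eBayes, two-sided, Benjamini-Hochberg over 20540 probes, threshold 0.05). The code of the fit was tested on simulated data with independent noise on each array. Those data lack the shared deviations of same-numbered arrays, so they do not show how the fit behaves on these arrays. Counts of order, range and overlap use the 20521 probes measured on all 6 arrays. Promoter letters were searched in 32851 RefSeq windows.

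As a pairing check, each array's deviation from its group mean was correlated with that of its same-numbered partner (0.498, 0.425 and 0.436). Same-numbered arrays thus deviated alike, but the labels name no shared litter or day, and the origin of the likeness was not tested. Differences, SEs, intervals and limma p-values of single genes come from the fit without the replicate block, unless the block is named. The share of all probes at an unadjusted limma p under 0.05 was 5.61% without the block and 9.34% with it. Whether replicates were separate cultures is unstated too, and p-values then reflect only spread among these samples, possibly technical. Members, gene lists, rules and tests were chosen with earlier results of these data known. Values on every array were given for the 8 member probes with the smallest p and the smallest p in each role, and up to 2 genes were named per other list; genes given outside that rule, the marker genes included, were picked with their values known. Alternatives were the background correction, scaling, the authors' values with pseudocounts of 1 and 16, no filter, the replicate block, and leaving out each array.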

Additional observations from a re-analysis of the deposited data

How the results depend on the processing

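The count of members past the adjusted threshold was 0 in limma under every alternative, the replicate block (0) included, as was the count over all probes. At an unadjusted p under 0.05 the member count was 1 in the reported fit and ranged from 1 to 5 over the alternatives, with 5 under the replicate block and 5 without control replicate 2. Over 35 named probes and their alternatives, 423 of 455 fits kept the direction and 0 passed. The median member difference was -0.06, between -0.13 and 0.05 with 1 array left out and between -0.24 and 0 otherwise. Control replicate 2 was the lowest control for 30 members in the reported values and for 20 to 30 with the other corrections and scalings. With the local background column, control replicate 3 was the highest array for 10 members (24 to 29 with the other corrections and scalings, chosen after seeing the data), and these differences changed sign: Ifit3 0.29, Iigp1 0.16, Irgm1 -0.62, Isg15 0.63, Rtp4 0.20, Tap1 -0.17, Dhx58 0.29, Socs1 0.32, Ifngr2 -0.55, Nlrx1 -0.01, Ifitm2 -1.71, Psme1 -0.14, Ifi204 0.38 and Slfn8 -0.01. In the authors' values, with either pseudocount, Bst2 (-0.06), Ifi35 (-0.14), Stat3 (-0.04) and Slfn8 (-0.04) did, and with median scaling Ifi35 (-0.03). With 1 array left out, ranges crossed 0 for Oas1a (-0.55 to 0.03), Irgm1 (-0.03 to 0.66), Usp18 (-0.41 to 0.06), Bst2 (-0.27 to 0.36), Ifi35 (-0.34 to 0.27) and Irf7 (-0.65 to 0.18); the cause of these changes was not tested. Dim probes such as Oas2 and Mx1 are limited by signal over background.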
